A study of Danio rerio with 6 samples.

Results

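The calcium cycling genes of the heart were followed here in the zebrafish sinoatrial ring (SAR), the pacemaker region at the inflow of the atrium, and in the rest of the heart (ROH). They were chosen by function, as 10 gene symbols: *atp2a2a* and *atp2a2b* (the SERCA2 pumps), *pln* (phospholamban), *ryr2a* and *ryr2b* (the cardiac ryanodine receptor), *casq2* (calsequestrin), *jph2* (junctophilin), and *slc8a1a*, *slc8a2b* and *slc8a4b* (sodium-calcium exchangers). The 10 symbols matched 9 of the 31465 gene identifiers in the tables, since 1 cardiac ryanodine receptor was found, listed as *RYR2* (ENSDARG00000003706) without saying whether it is *ryr2a* or *ryr2b*. The other copy was not analysed here. *atp2a2b* was taken to be the gene listed as *ATP2A2* (ENSDARG00000005122), the copy left after *atp2a2a* (ENSDARG00000029439) had been named, and *pln* is listed as *pln1* (ENSDARG00000069404). The other identifiers are ENSDARG00000008982 for *casq2*, ENSDARG00000028625 for *jph2*, ENSDARG00000013422 for *slc8a1a*, ENSDARG00000100592 for *slc8a2b* and ENSDARG00000037145 for *slc8a4b*.

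In a heart muscle cell, the ryanodine receptor releases calcium from the sarcoplasmic reticulum to start contraction. SERCA pumps the calcium back under the brake of phospholamban, and the sodium-calcium exchanger carries it out of the cell. In pacemaker cells the same proteins form the calcium clock, in which spontaneous release from the store drives an inward exchanger current that helps to bring the membrane to threshold. The zebrafish genome holds several of these genes as duplicated copies, so that the copy in use can differ between regions of a heart.

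All libraries came from hearts of embryos of the transgenic line sqet33mi59BEt at 72 hours post fertilization (hpf), in which GFP marks the SAR. Dissociated heart cells were sorted by FACS into GFP+ cells (SAR) and GFP- cells (ROH), with 3 libraries of each fraction and hearts of about 500 embryos pooled per replicate. No treatment or second genotype was used. The fractions are defined by GFP of this 1 line, so that each holds every cell type on its side of the gate, and the spread between replicates is a spread between pools.

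The estimated counts per library ranged from 7495108 to 77243214 in SAR and from 999437 (replicate 1) to 23495798 in ROH, so that a count of 3, taken as the floor of detection, equals 3 CPM (counts scaled to library size) in ROH replicate 1 and at most 0.400 CPM in the other libraries. Marker genes showed a mixed make-up of both fractions. The summed CPM of 10 cardiomyocyte markers was 3870, 3530 and 1570 in SAR replicates 1, 2 and 3 and 1300, 1370 and 1220 in ROH, none of the 10 being at 0 in any library. *actc1a* and *tpm4a* were the highest of the 10 in every library, at 388 and 878 CPM in SAR replicate 3. Singly, 3 of the 10 were higher in every SAR library than in every ROH library, an order that 14.3% of all tested genes showed. The 3 smooth muscle markers summed to 2530–2840 CPM in SAR and 788–2070 CPM in ROH, and none had an edgeR adjusted p below 0.05. *acta2* alone gave 2260, 2070 and 2030 CPM in SAR and 1180, 664 and 1710 CPM in ROH. The 4 epicardial markers summed to 855–1210 CPM in SAR and 145–208 in ROH, and the 5 epidermal markers to 4040–6380 and 651–1000. Of the epidermal sum *krt4* alone gave 4630, 5310 and 3140 CPM in SAR and 386, 421 and 713 CPM in ROH. The fractions overlapped for *cdh1* and *tp63*, which did not pass the test (log2 fold changes 0.24 and 1.01, edgeR adjusted p of 0.655 and 0.201). The 6 endothelial markers (208–299 against 846–2100), the 7 erythrocyte markers (3.06–6.69 against 7410–12900), the 4 liver markers (32.6–1060 against 5040–8590) and the 5 macrophage and neutrophil markers (1.46–3.39 against 84.4–170) were lower in SAR. Of the 7 pacemaker markers, 3 had an edgeR adjusted p below 0.05, all with SAR higher, beside 4.88% of all tested genes. They were *hcn4* (17.4, 12.4 and 6.76 against 4.69, 2.10 and 0.474 CPM), *tbx18* and *bmp4*. The ROH values of *hcn4* rest on 5, 52 and 9 counts. *hcn4l* and *shox2* (log2 fold changes 1.15 and 0.37) and *isl1* and *tbx3a* (−1.56 and −0.55) did not pass edgeR's test, the last pair having lower means in SAR. DESeq2 gave *isl1* an adjusted p of 0.0273 with ROH higher (log2 fold change −1.58).

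All 9 genes passed the filter on low counts and were tested. In 8 of them the mean level was higher in SAR, and the median log2 fold change of SAR over ROH was 1.24, beside 0.03 over all 21969 tested genes. The term called is used for a gene with an edgeR adjusted p below 0.05 whose log2 fold change was 1.5 or more in either direction. Of the 9, the pump gene *atp2a2a* and the exchanger gene *slc8a2b* (2 genes) were called with SAR higher, and 0 with ROH higher. The background over all tested genes was 2.84% with SAR higher and 3.70% with ROH higher. Without the fold change threshold *slc8a1a* was added, giving 3 of 9 beside 4.88% of all genes. In bulk libraries such as these, fewer cells of a type and less RNA per cell cannot be told apart.

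**Figure D1:**
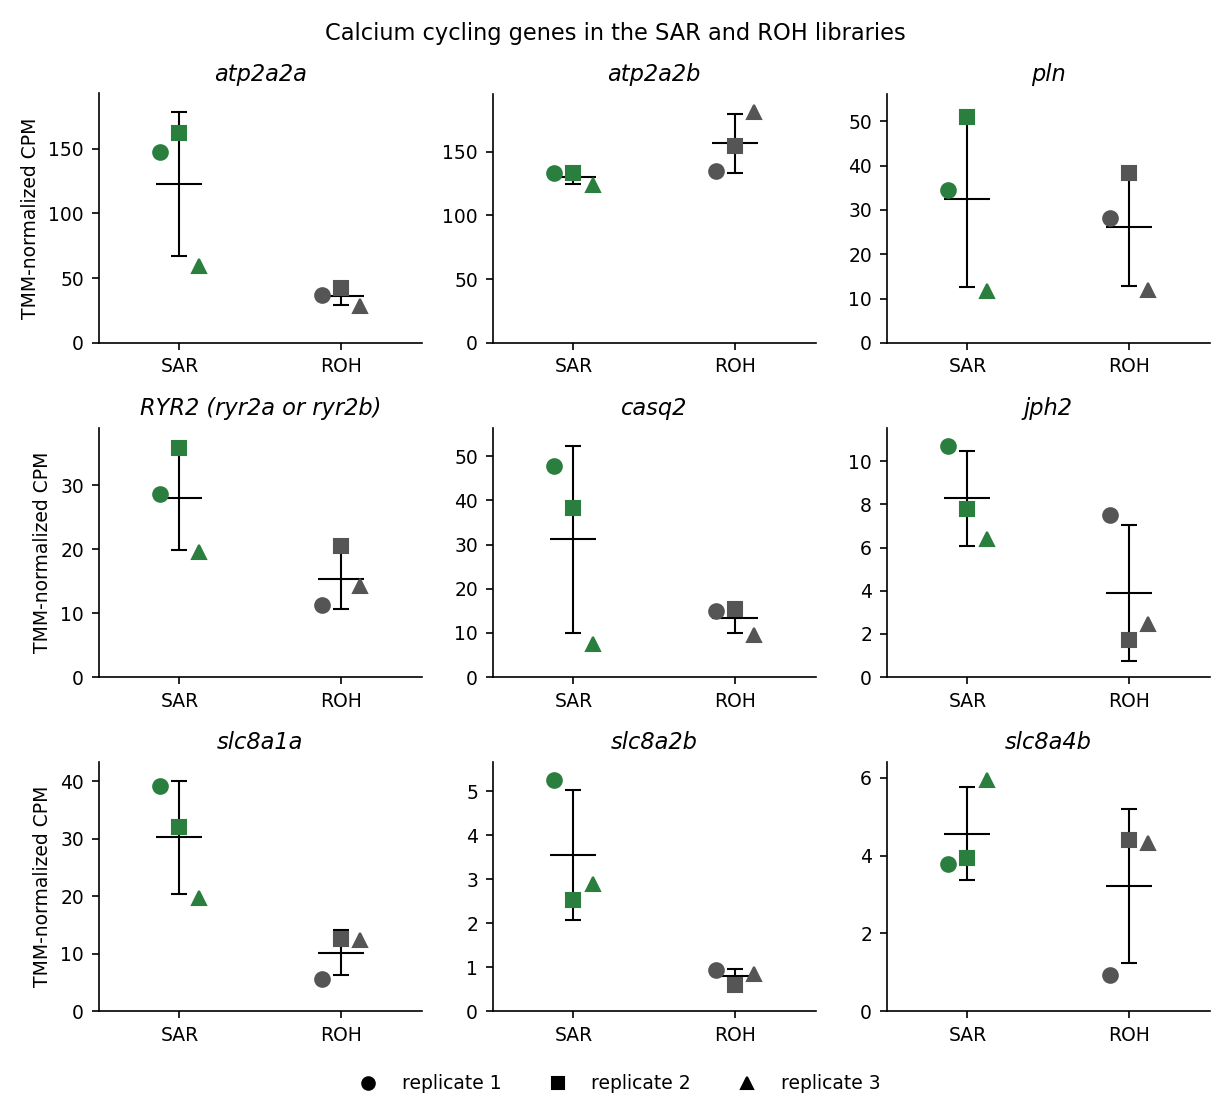
TMM-normalized CPM of the 9 calcium cycling genes in each library, with SAR in green, ROH in grey, the marker shape giving the replicate, and horizontal and vertical bars giving the mean ± SD of 3 libraries on linear axes from 0. *atp2a2a*, *slc8a1a* and *slc8a2b* lay higher in every SAR library than in every ROH library, *atp2a2b* lay lower, and the fractions overlapped for the other genes.

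The SERCA pumps return calcium to the store after each beat, and in mammals SERCA2a is the form of cardiac muscle. *atp2a2a* was at 147, 162 and 59.4 CPM in SAR replicates 1, 2 and 3 and at 36.6, 42.2 and 28.7 CPM in ROH. All SAR values exceeded all ROH values, an order that 14.3% of all tested genes showed, although SAR replicate 3 had less than the other SAR libraries. The means were 123 ± 55.2 and 35.9 ± 6.79 CPM (SD, n = 3 each), and the log2 fold change was 1.77 ± 0.37 (SE), with an edgeR adjusted p of 0.0208. The exact permutation test of this gene gave p = 0.1, the smallest that 3 against 3 libraries allow. The call was lost without ROH replicate 1 (edgeR adjusted p = 0.0684) or ROH replicate 3 (0.0555) and without both replicate 1 libraries (0.137), with log2 fold changes of 1.79, 1.67 and 1.63.

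The second SERCA2 copy behaved differently. *atp2a2b* was at 133, 133 and 124 CPM in SAR and at 135, 154 and 181 CPM in ROH, with means of 130 ± 5.29 and 157 ± 23.0 CPM (SD, n = 3 each). All SAR values were below all ROH values, with 133 and 135 CPM as the closest, and 15.6% of all tested genes showed that order. The log2 fold change of −0.28 ± 0.16 (SE) did not pass the test (edgeR adjusted p = 0.376). Its SAR libraries lay close together, and SAR replicate 3 held 0.931 times the mean of the other SAR replicates, against 0.385 times for *atp2a2a*.

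The ratio of both copies was computed as well. The difference in *atp2a2a* itself enters this ratio and the SERCA shares, so that neither is a separate result. On the TPM scale, which is per transcript length, *atp2a2a* over *atp2a2b* was 2.12, 2.70 and 1.23 in SAR and 0.547, 0.537 and 0.386 in ROH. Every SAR library had more *atp2a2a* than *atp2a2b*, and every ROH library had less. The exact permutation p of the log2 ratio was 0.1, its smallest possible value, and this ratio was chosen after the values were seen. The authors' transcript lengths enter this order, at 1206–1350 bases for *atp2a2a* and 1957–2600 for *atp2a2b*. In CPM the ratio was 1.1, 1.22 and 0.480 in SAR and 0.271, 0.274 and 0.159 in ROH, again without overlap, but SAR replicate 3 then had less *atp2a2a* than *atp2a2b*.

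As a share of the summed TPM of the 5 SERCA genes, *atp2a2a* made up 42.6%, 65.1% and 46.0% in SAR and 21.2%, 25.5% and 18.9% in ROH. The fractions did not overlap, and the means differed by 29.4 percentage points (51.2% ± 12.2 against 21.9% ± 3.33, SD, n = 3 each, exact permutation p = 0.1). The share of *atp2a2b* was 20.1%, 24.2% and 37.4% in SAR and 38.8%, 47.4% and 49.0% in ROH. *atp2a1*, the pump of fast skeletal muscle, took 30.5% in SAR replicate 1 but 4.12% and 3.90% in SAR replicates 2 and 3, and between 10.8% and 28.8% in ROH. Its deposited length was only 287–397 bases, against 1206–1350 for *atp2a2a*, which raises its TPM share and lowers those of the others. In CPM *atp2a1* was at 101, 9.32 and 5.69 in SAR and at 21.6, 15.3 and 37.6 in ROH. The summed level of the 13 fast skeletal muscle markers was also highest in SAR replicate 1, at 492 CPM. It was 112 and 64.1 CPM in SAR replicates 2 and 3 and 72.3–116 CPM in ROH. In SAR replicate 2 the 112 CPM, of which *ckma* alone gave 73.1 CPM, stood beside an *atp2a1* share of 4.12%. In ROH replicate 3 it was 116 CPM, with *ckma* at 41.1 CPM, beside a share of 22.1%. The part of fast skeletal muscle cells in the shares was not tested. None of *atp2a1*, *atp2a1l* and *atp2a3* passed the test (log2 fold changes 0.58, −0.11 and −0.15, edgeR adjusted p of 0.806, 0.941 and 0.814). Measured from estimated counts in place of TPM, the share of *atp2a2a* differed by 22 points in the same direction. The summed TPM of all 5 SERCA genes was 154, 150 and 88.3 in SAR and 81.1, 91.9 and 94.8 in ROH, and these ranges overlapped (exact permutation p = 0.3).

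**Figure D2:**
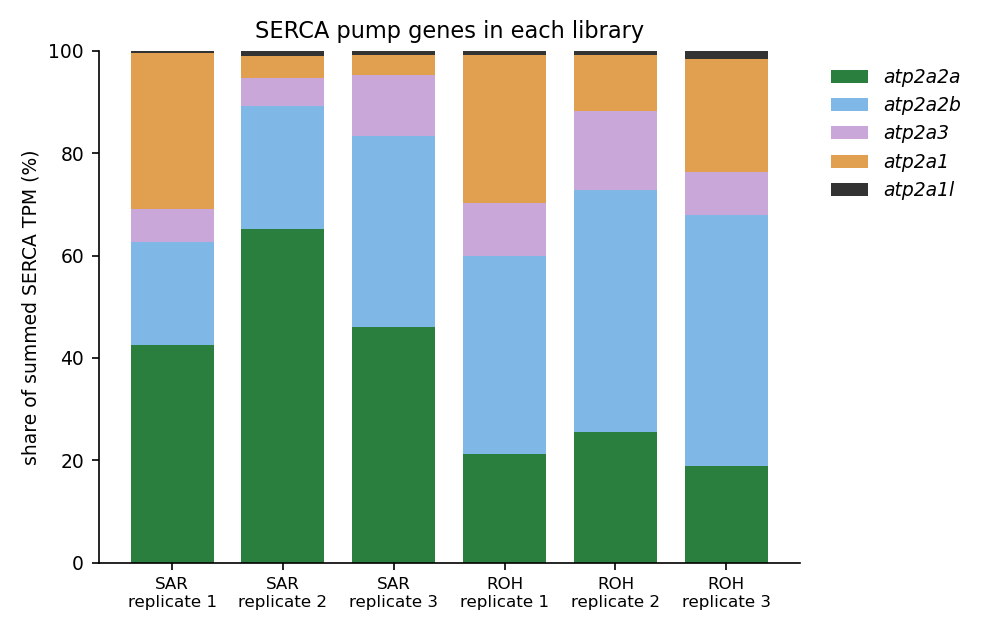
Share of each SERCA gene in the summed SERCA TPM of each library, as stacked bars from 0 to 100%. *atp2a2a* (dark green) took 42.6–65.1% in the 3 SAR libraries and 18.9–25.5% in the 3 ROH libraries. *atp2a1* (orange), whose short deposited length raises its share, was at 30.5% in SAR replicate 1 and 28.8% in ROH replicate 1.

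Phospholamban is a small membrane protein that holds SERCA back until it is phosphorylated. *pln* was at 34.4, 51.0 and 11.7 CPM in SAR and at 28.1, 38.3 and 12 CPM in ROH. The fractions overlapped fully, with replicate 2 highest and replicate 3 lowest in each, and the log2 fold change of 0.32 ± 0.57 (SE) did not pass the test (edgeR adjusted p = 0.819). Its sign turned when SAR replicate 2 or ROH replicate 3 was left out. The second phospholamban gene of the tables, *pln2*, was looked at after these values were seen and was at 70.9, 102 and 15.3 CPM in SAR and at 33.8, 19.8 and 34.5 CPM in ROH (log2 fold change 1.12 ± 0.59 SE, edgeR adjusted p = 0.314). It overlapped as well, with SAR replicate 3 below every ROH library.

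Because *atp2a2a* differed between the fractions and *pln* did not pass the test, the ratio of *pln* to each SERCA2 copy was computed, also after the values were seen. The difference in *atp2a2a* itself enters its ratio. *pln2* was left out, although it was at 34.4, 61.2 and 8.58 TPM in SAR and at 17.6, 11.2 and 18 TPM in ROH. In TPM, *pln* over *atp2a2a* was 0.577, 0.655 and 0.334 in SAR and 2.25, 1.73 and 0.735 in ROH. Every SAR library lay below every ROH library, with an exact permutation p of 0.1, the smallest possible. Against *atp2a2b* the same ratio was 1.22, 1.77 and 0.411 in SAR and 1.23, 0.932 and 0.284 in ROH, which overlapped (exact permutation p = 0.6).

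The cardiac ryanodine receptor is the release channel of the store. *RYR2* was at 28.6, 35.8 and 19.6 CPM in SAR and at 11.3, 20.5 and 14.2 CPM in ROH. Its ranges met at the lowest SAR library (replicate 3) and the highest ROH library (replicate 2), the other SAR libraries being higher than all of ROH. The means were 28.0 ± 8.13 and 15.3 ± 4.72 CPM (SD, n = 3 each), and the log2 fold change of 0.81 ± 0.30 (SE) did not pass (edgeR adjusted p = 0.143). Shares were taken among the 4 ryanodine receptor genes matched here, without the other cardiac copy. *RYR2* held 67.5%, 62.7% and 64.3% of the summed TPM in SAR and 41.3%, 57.1% and 52.9% in ROH. Here the fractions did not overlap, with a difference of 14.4 percentage points between the means (64.8% ± 2.43 against 50.4% ± 8.18, SD, n = 3 each, exact permutation p = 0.1). *ryr1a* and *ryr1b*, whose mammalian counterpart is the release channel of skeletal muscle, held less in every SAR library than in every ROH library, with mean shares of 23.0% against 30.7% and of 3.94% against 7.48%. Shares within a family depend on each other, so that a larger share of *RYR2* lowers the others. The level of *ryr1a* itself overlapped, with means of 7.96 CPM in SAR and 7.25 CPM in ROH. None of *ryr1a*, *ryr1b* and *ryr3* passed the test by itself (log2 fold changes 0.14, −0.31 and 0.27, edgeR adjusted p of 0.955, 0.833 and 0.838). In ROH replicate 1 these shares rest on few counts.

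Calsequestrin is the calcium buffer inside the store, and human *CASQ2* mutations cause a stress-induced ventricular tachycardia. *casq2* was at 47.9, 38.2 and 7.39 CPM in SAR and at 15, 15.5 and 9.52 CPM in ROH. SAR replicates 1 and 2 lay above all ROH libraries and SAR replicate 3 below all of them, a 6.48-fold range within SAR. With means of 31.2 ± 21.1 and 13.3 ± 3.31 CPM (SD, n = 3 each) and a log2 fold change of 1.24 ± 0.61 (SE), *casq2* was not called (edgeR adjusted p = 0.271). Without SAR replicate 3 it was, with a log2 fold change of 1.71 (edgeR adjusted p = 0.0183). The proportion of calsequestrin to release channel did not separate the fractions, as the TPM ratio of *casq2* to *RYR2* was 12.6, 7.62 and 2.84 in SAR and 11.1, 5.64 and 4.94 in ROH (exact permutation p = 1), although 3 libraries against 3 leave a wide range for a difference.

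Junctophilin holds the store membrane next to the cell membrane, where calcium channels and ryanodine receptors face each other. *jph2* was at 10.7, 7.80 and 6.38 CPM in SAR and at 7.50, 1.74 and 2.47 CPM in ROH. ROH replicate 1, where this value stands for 8 counts, was the only ROH library within the SAR range. The log2 fold change of 1.46 ± 0.56 (SE) did not pass (edgeR adjusted p = 0.150), and without ROH replicate 1 it was 1.96 and was called (edgeR adjusted p = 0.0462).

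The sodium-calcium exchangers remove calcium from the cell in exchange for sodium. *slc8a1a* encodes the cardiac exchanger NCX1h, and zebrafish mutants of it have hearts that fibrillate. It was at 39.1, 32.0 and 19.7 CPM in SAR and at 5.63, 12.6 and 12.4 CPM in ROH, the lowest of these resting on 6 counts. Every SAR library was above every ROH library. The log2 fold change was 1.45 ± 0.34 (SE), a 2.73-fold difference, with an edgeR adjusted p of 0.0336, just under the fold change threshold and therefore not called. The adjusted p was above 0.05 in 5 of the 6 fits that left out 1 library, and at 0.0272 without SAR replicate 3, where the log2 fold change was 1.69 and the gene was called.

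*slc8a2b* belongs to the NCX2 group, which in mammals is known from the brain. It was scarce, at 5.25, 2.54 and 2.89 CPM in SAR and 0.938, 0.605 and 0.842 CPM in ROH, the latter from 1, 15 and 16 counts. All SAR values exceeded all ROH values, although the value of ROH replicate 1 is below the floor of 3 CPM in that library. The means were 3.56 ± 1.48 and 0.795 ± 0.171 CPM (SD, n = 3 each). Its log2 fold change of 2.23 ± 0.54 (SE) was the largest of the 9 genes and was called (edgeR adjusted p = 0.0370). Of the 6 fits that left out 1 library, the call held only without SAR replicate 2 (0.0337), and the adjusted p was 0.0739 without SAR replicate 1, 0.0774 without SAR replicate 3, and 0.0777, 0.209 and 0.111 without ROH replicates 1, 2 and 3. The 7 neuron markers, none at 0 in any library, summed to 827, 477 and 626 CPM in SAR and to 591, 311 and 317 CPM in ROH, which overlapped, and 1 of them, *phox2bb*, was called with SAR higher (log2 fold change 1.85). In ROH replicate 1 a gene listed as *SNAP25* (ENSDARG00000058117) gave 175 CPM of the sum. Singly, 6 of the 7 had a log2 fold change above 0, with a median of 1.06 beside 0.03 over all tested genes. In 3 of them every SAR library was above every ROH library, beside 14.3% of all tested genes. Their part in the level of *slc8a2b* was not tested.

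*slc8a4b* belongs to NCX4, a group kept in fish but not in mammals. It was at 3.79, 3.94 and 5.93 CPM in SAR and at 0.938, 4.4 and 4.31 CPM in ROH, where the lowest value is a single count. Apart from that library the levels of both fractions were interleaved. The log2 fold change was 0.31 ± 0.47 (SE) and did not pass the test (edgeR adjusted p = 0.782).

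As a family, the 7 exchanger genes summed to 19.1, 19.6 and 12.9 TPM in SAR and 4.60, 7.76 and 7.57 TPM in ROH. This total was higher in every SAR library (17.2 ± 3.75 against 6.64 ± 1.77 TPM, SD, n = 3 each, exact permutation p = 0.1). In ROH replicate 1 the total and the shares rest on 6 counts of *slc8a1a* and 1 or 2 of each other gene. *slc8a1a* was the main exchanger in every library, with 64.8–73.8% of the summed TPM in SAR and 42.5–67.0% in ROH, ranges that overlapped (exact permutation p = 0.2). Its duplicate *slc8a1b* was at 6.86, 5.02 and 4.47 CPM in SAR and at 0.938, 2.18 and 2.58 CPM in ROH, and did not pass the test (log2 fold change 1.32 ± 0.43 SE, edgeR adjusted p = 0.0943). *slc8a2a*, *slc8a3* and *slc8a4a* were below 2 CPM in every library and did not pass the test (edgeR adjusted p of 0.978, 0.975 and 0.740).

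**Figure D3:**
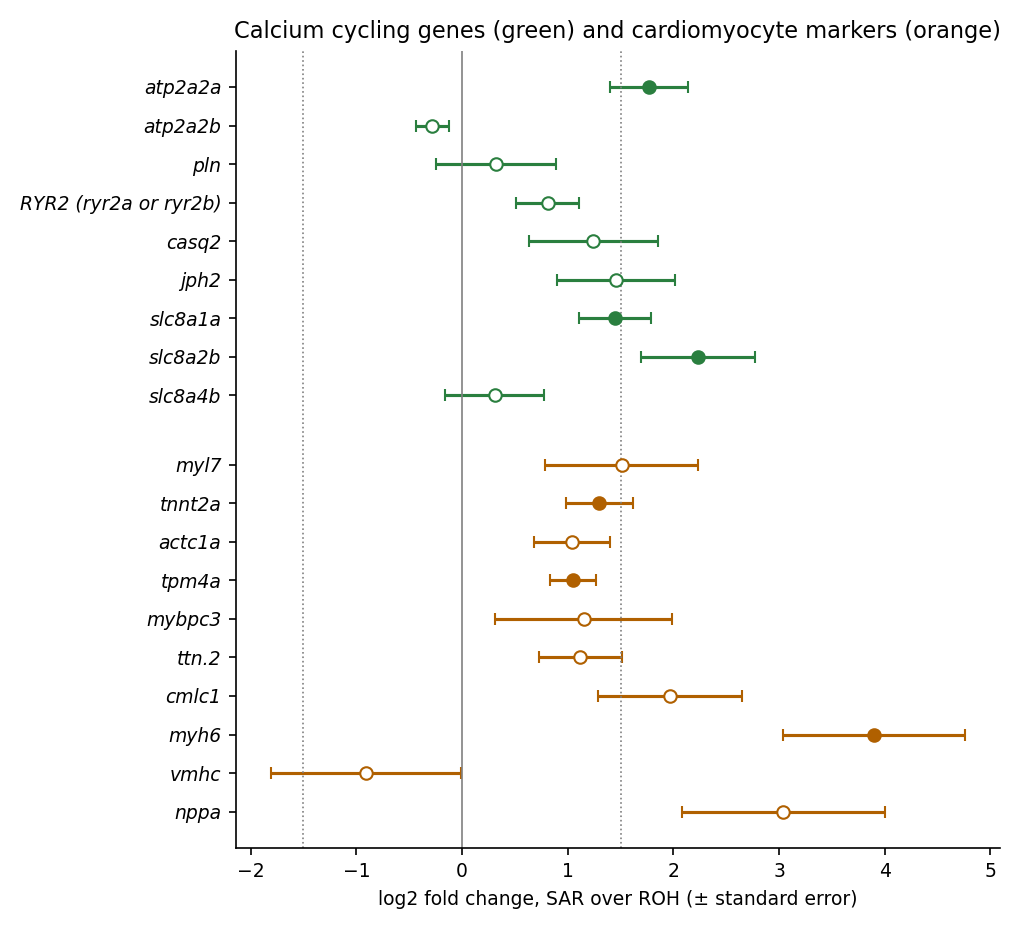
Log2 fold change of SAR over ROH (± SE, edgeR) of the 9 calcium cycling genes in green and of the 10 cardiomyocyte markers in orange. Filled points have an adjusted p below 0.05 and dotted lines mark a log2 fold change of ±1.5. Among the calcium genes *atp2a2a*, *slc8a1a* and *slc8a2b* are filled, and among the markers *tnnt2a*, *tpm4a* and *myh6*.

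Within each library the order of the 9 genes by TPM was led by the pumps and *pln*. In SAR *atp2a2a* had the highest rank in all 3 libraries (65.6, 97.7 and 40.6 TPM), with *pln* and *atp2a2b* in the next 2 places. In ROH *pln* or *atp2a2b* led and *atp2a2a* at rank 2 or 3 (17.2, 23.4 and 18.0 TPM). *casq2* and *slc8a1a* followed at ranks 4 to 6 in all 6 libraries, and *jph2*, *RYR2*, *slc8a2b* and *slc8a4b* took the lowest places, except that *jph2* was above *slc8a1a* in ROH replicate 1. *pln* and *atp2a2b* exchanged places between replicates in each fraction, as did *casq2* and *slc8a1a*, and *RYR2* and *slc8a2b* in SAR, so that the order of these neighbours is not set by 3 libraries. *RYR2* was low per length because of its 19213–19846 bases.

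The cardiomyocyte markers were set beside the calcium genes. Of the 10 markers 9 had a higher mean in SAR, 3 had an edgeR adjusted p below 0.05 and 1, the atrial myosin gene *myh6*, was called, with a median log2 fold change of 1.23 beside 1.24 for the 9 calcium genes. The ventricular myosin gene *vmhc* was the exception, at 56.9, 61.9 and 4.37 CPM in SAR and 86.3, 124 and 20.3 CPM in ROH. In SAR replicate 3 was below the mean of replicates 1 and 2 for all 10 markers. In ROH it was too, except for *actc1a* (1.01 times that mean) and *tpm4a* (1.47 times), with *ttn.2* close to it (0.975 times). For *myl7*, a myosin light chain of atrium and ventricle, it held 0.129 times the mean of replicates 1 and 2 in SAR and 0.330 times in ROH, for *pln* 0.275 and 0.361 times, and for *casq2* 0.172 and 0.625 times. Without both replicate 3 libraries *atp2a2a* remained called (log2 fold change 1.97, edgeR adjusted p = 0.00877). The libraries left in that fit had summed markers of 3870 and 3530 CPM in SAR and 1300 and 1370 CPM in ROH. Without both replicate 1 libraries *atp2a2a* was not called (log2 fold change 1.63, edgeR adjusted p = 0.137). The part of the number of cardiomyocytes in the calcium genes' differences was not tested.

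Each calcium gene was therefore also set relative to the summed CPM of the 10 cardiomyocyte markers in its own library. On this log2 scale 4 of the 9 genes were higher in SAR and 5 lower. *atp2a2a* was at −4.72, −4.45 and −4.72 in SAR and at −5.14, −5.01 and −5.40 in ROH, so that it was higher relative to these markers in every SAR library, by 0.55 between the means (exact permutation p = 0.1). *atp2a2b* was lower in every SAR library, at −4.86, −4.73 and −3.67 against −3.26, −3.15 and −2.75, a difference of −1.37 (exact permutation p = 0.1). The marker sum was itself higher in every SAR library, at 3870, 3530 and 1570 against 1300, 1370 and 1220 CPM. A gene at an equal CPM in all libraries would therefore also be lower in every SAR library on this scale. The log2 fold change of *atp2a2b* itself was −0.28, and the share of all genes that separate on this scale was not computed. For the other 7 genes the fractions overlapped, with differences between −0.88 (*pln*) and 0.87 (*slc8a2b*). The directions of *atp2a2a* and *atp2a2b* held with *myl7* alone as the reference, without the chamber genes *myh6*, *vmhc* and *nppa*, in TPM, with a pseudocount of 1 in place of 0.1 CPM, and without any 1 library. The direction for *slc8a4b*, *casq2* and *jph2* turned in at least 1 of these settings. With *myl7* alone as the reference, however, the fractions overlapped for *atp2a2a* and *atp2a2b* too. *atp2a2a* was at 28.7 CPM beside 48.5 of *myl7* in ROH replicate 3, and at 147 beside 429 in SAR replicate 1. *atp2a2b* was at 124 CPM beside 59 of *myl7* in SAR replicate 3, and at 135 beside 134 in ROH replicate 1.

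**Figure D4:**
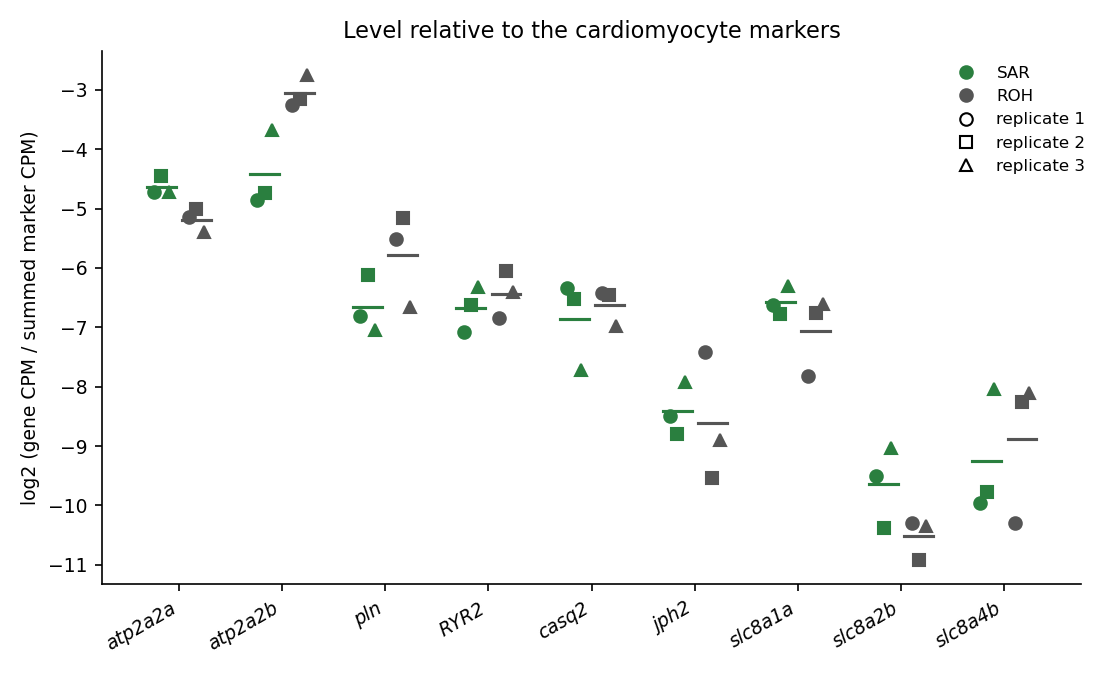
Level of each calcium cycling gene relative to the summed cardiomyocyte markers of the same library, as log2 of the ratio of CPM values. Points are libraries (SAR green, ROH grey, marker shape by replicate) and lines are means of 3, and the fractions separate for *atp2a2a* (SAR higher) and *atp2a2b* (SAR lower) and overlap for the other 7 genes. The marker sum, itself higher in every SAR library, enters each ratio. With *myl7* alone as the reference, which is not drawn, *atp2a2a* and *atp2a2b* overlap as well.

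The wider calcium machinery was examined as lists. These lists of pumps, channels, exchangers and store proteins outside the 9 genes held 67 matched genes, of which 64 were tested. The log2 fold change was above 0 for 42 of the 64, its median was 0.12, and 1 gene was called with SAR higher, beside 2.84% of all tested genes, and 0 with ROH higher, beside 3.70%. The values of the fractions did not overlap in 8 genes with SAR higher and in 5 with SAR lower, beside 14.3% and 15.6% of all tested genes, so that neither count stood above the background.

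The called gene was *hrc* (ENSDARG00000045947), which encodes the histidine-rich calcium-binding protein of the store lumen, known in mammals to bind SERCA2 and triadin. *hrc* was at 60.4, 46.3 and 29.9 CPM in SAR and at 2.81, 1.57 and 1.05 CPM in ROH, the latter from 3, 39 and 20 counts. The lowest SAR library was over 10 times the highest ROH library. The log2 fold change of 4.98 ± 0.41 (SE), a 31.6-fold difference, ranked 73 among the 21969 tested genes (edgeR adjusted p = 0.000599), and *hrc* was called in all 20 alternative fits that tested it. Among its partners *trdn*, which encodes triadin, was at 21.6, 12.9 and 3.54 CPM in SAR and at 3.75, 4.60 and 2.89 CPM in ROH. It overlapped in SAR replicate 3 and did not pass edgeR's test (log2 fold change 1.73 ± 0.63 SE, adjusted p = 0.135), whereas DESeq2 called it (log2 fold change 1.77, adjusted p = 0.0292).

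*fkbp1b*, which encodes FKBP12.6, a protein bound to the ryanodine receptor, was at 37.5, 40.4 and 35.2 CPM in SAR and at 21.6, 21.5 and 15.5 CPM in ROH. It was higher in every SAR library with a narrow spread, and its log2 fold change of 0.97 ± 0.20 (SE) had an edgeR adjusted p of 0.0219 but lay under the fold change threshold. The adjusted p was above 0.05 without SAR replicate 3 (0.0545), ROH replicate 2 (0.0607) or ROH replicate 3 (0.0652). Of the other junctophilin genes, *jph1a* and *jph1b* were higher in every SAR library without passing the test (log2 fold changes 1.1 and 1.01, edgeR adjusted p of 0.262 and 0.136). In ROH replicate 1 the value of *jph1a* rests on 1 count. The fractions overlapped for *jph3a* and *jph3b* (log2 fold changes 0.08 and −0.43). In the list of junction and store proteins, 14 of 17 tested genes had a log2 fold change above 0, with a median of 0.11 beside 0.03 over all tested genes.

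The remaining lists held no gene with an edgeR adjusted p below 0.05. Of the 6 plasma membrane calcium pumps 5 had a log2 fold change above 0, with a median of 0.54 beside 0.03 over all tested genes. *atp2b1a* (218, 137 and 120 against 96.6, 92 and 93.5 CPM), *atp2b3b* and *atp2b4* lay above ROH in every library (edgeR adjusted p of 0.0856, 0.0833 and 0.0897). That order was shown by 14.3% of all tested genes, and over all lists together by 8 of 64. The 4 IP3 receptor genes encode release channels outside the ryanodine family. Of these, *itpr2* and *itpr3* lay lower in every SAR library, as did 15.6% of all tested genes (log2 fold changes −0.71 and −0.90, edgeR adjusted p of 0.223 and 0.136). The fractions overlapped for *itpr1a* and *itpr1b* (log2 fold changes 0.52 and 0.27). The 8 mitochondrial calcium genes had a median log2 fold change of 0.17, the 7 genes of store-operated entry of 0.06, the 5 tested potassium-dependent exchangers of 0.44, the 5 tested kinases and regulators of phosphatase of −0.23, and the Golgi pump *atp2c1* was at −0.08. *s100a1*, whose mammalian protein binds SERCA, had a log2 fold change of −1.86 ± 1.07 (SE) that did not pass the test (edgeR adjusted p = 0.358), with 0.146, 1.84 and 0.0784 CPM in SAR and 0.938, 2.42 and 3.79 CPM in ROH.

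**Figure D5:**
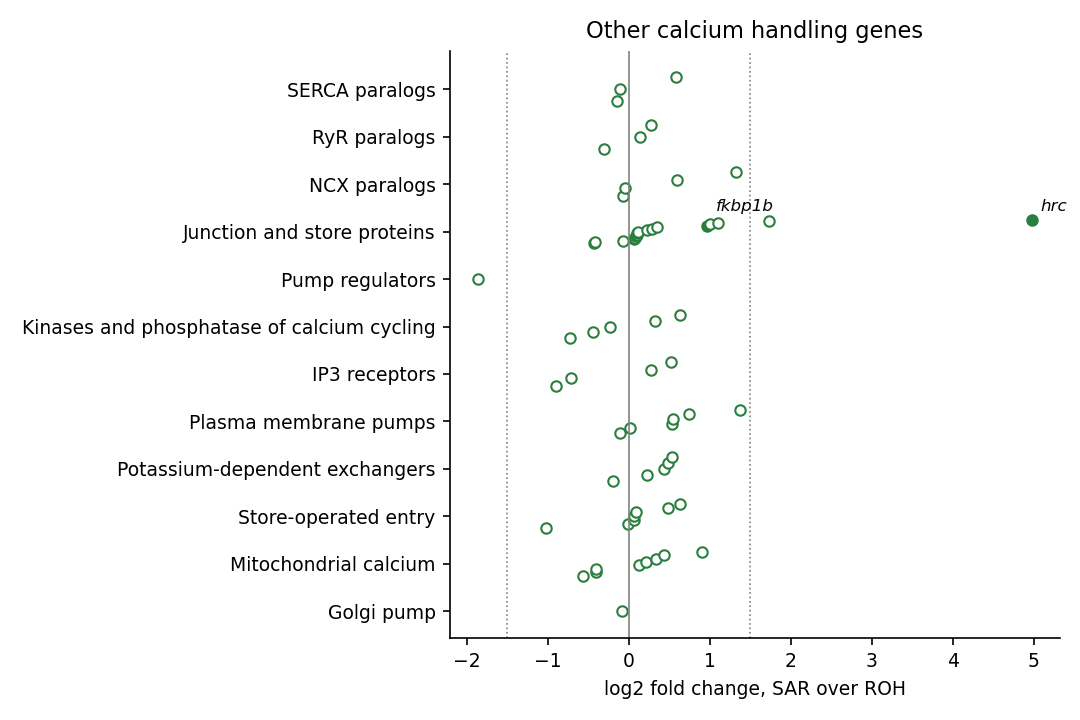
Log2 fold change of SAR over ROH (edgeR) of the 64 tested genes of the other calcium lists, by list, with filled points for an adjusted p below 0.05 and dotted lines at a log2 fold change of ±1.5. *hrc* stands at 4.98 and *fkbp1b* at 0.97, and the lowest point, at −1.86, is *s100a1*.

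Among 11253 genes with a mean of at least 10 CPM, the levels most like those of *atp2a2a* over the 6 libraries, by Pearson correlation of log2 CPM, were those of *popdc2* (r = 0.995), *HNRNPM* (r = 0.994) and *PPP4C* (r = 0.990). The 6 points share their libraries and the difference between fractions. *popdc2*, which encodes a Popeye domain protein of heart muscle that binds cAMP, was at 107, 116 and 50.4 CPM in SAR and at 35.6, 35.3 and 24.0 CPM in ROH (log2 fold change 1.54, edgeR adjusted p = 0.0232). It was low in SAR replicate 3 like *atp2a2a*. *HNRNPM* and *PPP4C* followed the same pattern over a far narrower range, with log2 fold changes of 0.36 and 0.23 that did not pass the test.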

How the data were processed

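Hearts of sqet33mi59BEt embryos at 72 hpf were sorted by FACS into 3 SAR and 3 ROH libraries (SMART-Seq v4, Nextera XT, paired 75 bp reads), one table per library. The authors quantified reads with Salmon against GRCz11 (Ensembl Genes 92) and deposited estimated counts per gene, which need not be whole and were rounded here. The authors also deposited TPM values, scaled by transcript length and library total, used here for levels between genes and for limma. Salmon divides reads shared by duplicated genes in proportion to its estimate, so the split between paralogs carries that uncertainty. Length-dependent ratios follow the deposited lengths. The 12 globin genes took 0.00289–0.00629% of SAR and 3.33–5.58% of ROH TPM.

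Counts were filtered with filterByExpr (minimum count 10, minimum total 15), normalized by TMM and fitted by edgeR's quasi-likelihood test (edgeR version 4.0.16, R version 4.3.3) with the fraction as the only factor. P-values were adjusted by the Benjamini-Hochberg method over 21969 genes, and calls needed an adjusted p below 0.05 with a log2 fold change of 1.5 or more in either direction. Single values were compared by two-sided exact permutation tests, whose smallest p is 0.1. These used log2 CPM (prior count 2) for genes and log2 values for ratios. For family totals they used log2 of the summed TPM plus 0.1, and for family shares the percentages. No p was adjusted over the gene lists alone. Alternatives used DESeq2 (version 1.42.0), limma (version 3.58.1), other scalings and filters, thinned counts, a replicate block and left-out libraries. The procedures were run on simulated counts with a single fixed dispersion and no replicate effect. Those runs checked the code and do not show how the tests behave at the spread between these pools.

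Members and lists were chosen with earlier results of these data known. Named were all members, called genes of the other lists, paralogs of SERCA, RyR and NCX, and the 3 genes most correlated with the member of the highest mean TPM (*atp2a2a*). *pln2*, *fkbp1b*, *trdn*, *s100a1*, *jph1a*, *jph1b*, *jph3a*, *jph3b*, the plasma membrane pumps and the IP3 receptor genes were named after their values were seen. Symbols came from the study's supplementary tables and a gene name table, which left 2494 identifiers without one. A RefSeq gene table served for synonyms and for matching duplicated copies. No genome, coordinates or sequences were used here. Replicates were separate pools of embryos per the study's methods.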

Additional observations from a re-analysis of the deposited data

How the results depend on the processing

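Across 22 alternatives, the number of the 9 calcium cycling genes called higher in SAR was 2, except that it was 1 with at least 10 counts in every library (5 genes tested), 0 with limma at either pseudocount (1 or 0.1 TPM), 1 with limma on genes of a mean TPM of at least 1 (7 tested), 1 with the replicate block combined with gene length offsets, 1 with both replicate 3 libraries left out, 0 with both replicate 1 libraries left out, 3 without a fold change threshold, and between 0 and 3 when 1 library was left out (1 without SAR replicate 1, 3 without SAR replicate 3, 1 without ROH replicate 1 or 2, and 0 without ROH replicate 3). The pairs of left-out libraries were chosen after seeing the data. With thinned counts the 2 called genes were *atp2a2a* and *slc8a1a*. *atp2a2a* was called in 16 of 21 alternatives and *slc8a2b* in 8 of 18. Over all of these, called or not, their log2 fold changes ranged from 1.52 to 2.11 and from 0.866 to 2.51. *fkbp1b* had an adjusted p below 0.05 in 13 of 21. In 160 of 162 planned refits a member kept its direction, and *pln* did not, ranging from −0.197 to 0.834 with −0.030 without ROH replicate 3. Relative to the cardiomyocyte markers, *slc8a2b* fell to a difference of 0.198 with a pseudocount of 1. The other calcium genes called higher in SAR numbered 2 with DESeq2 (*hrc* and *trdn*), 2 without a fold change threshold, 0 with at least 10 counts in every library, where *hrc* was not tested, and 1 to 3 with 1 library left out (*hrc*, *trdn* and *atp2b3b* without SAR replicate 3). Those called higher in ROH numbered 0 to 1, as *atp2a1* was called without SAR replicate 1 and *s100a1* without SAR replicate 2. Over all genes, 624 calls had SAR higher and 813 had ROH higher. These became 215 and 391 with at least 10 counts in every library, 360 and 479 with limma at a pseudocount of 1 TPM, 131 and 91 at 0.1 TPM, 407 higher in SAR with thinned counts, 373 and 420 without both replicate 1 libraries, 350 higher in ROH without both replicate 3 libraries, and 1072 higher in SAR without a fold change threshold. With 1 library left out they ranged over 369–647 and 442–1035, lowest without ROH replicate 2. Library totals in place of TMM moved the median log2 fold change of all genes to −0.077, and no filter to 0.104. The causes of these differences were not tested.

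The replicate numbers were not taken as pairs, which remains uncertain. Deviations of same-numbered libraries correlated at 0.0985, 0.273 and 0.124, not every value being above 0.1. The study's methods describe pools of hearts sorted into both fractions, so that same-numbered libraries may share a pool, but do not say that the numbers follow the pools. Every library correlated best with its own number, a hint from the data. With the replicate block 719 calls had SAR higher and 1040 had ROH higher, 1391 of these 1759 also being called without it. The same 2 members were called, and 1 when the block was combined with gene length offsets, where *slc8a2b* had an edgeR adjusted p of 0.0509. With the block 7 of 10 cardiomyocyte markers had an adjusted p below 0.05 with SAR higher and 1 (*vmhc*) with ROH higher, against 3 and 0 without it. These marker counts use no fold change threshold, unlike the 719 and 1040 calls, so they cannot be read against them. Depth limits the low genes most: *slc8a2b* and *slc8a4b* each rest on 1 count in ROH replicate 1.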
